A study of Mus musculus with 16 samples.

Results

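The SoxE transcription factors Sox9, Sox8 and Sox10, the transcription factor Dmrt1 and the signalling ligand Fgf9 were read in whole ovaries of mice aged 1 year. A probe was taken as a probe of one of these 5 genes when the array files, or the current symbol of the accession it was designed on, gave that gene's name. This gave 9 of the 41174 probes on the array, of which 8 had signal well above background on 4 or more of the 16 arrays and were tested among 36224 such probes. By its title the study concerns ERα and ERβ, the estrogen receptors, in granulosa cells that turn into another cell type in the aged ovary. Total RNA labelled with the dye Cy3 was hybridised to 16 single-colour Agilent arrays, 4 in each of 4 groups. Control ovaries carried one allele of each receptor. By their labels, Ex3aERKO ovaries lacked ERα, Ex3bERKO ovaries lacked ERβ and Ex3abERKO ovaries lacked both. The labels give no other allele, no strain and no treatment, and leave unstated in which cells a receptor was removed and whether each of the 4 samples of a group came from its own animal. A p-value here therefore weighs differences against the spread of these samples alone, some of which may be technical. An array is written as its group with its number, such as Ex3aERKO 4.

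In the fetal testis, Sry switches on Sox9 in the supporting cell lineage, Sox9 and Fgf9 maintain each other, and the cells become Sertoli cells, the counterpart of the granulosa cells of the ovary. Sox8 and Sox10 share the DNA-binding HMG box with Sox9, and Sox8 acts together with Sox9 in Sertoli cells, while Sox10 is best known in neural crest, glia and melanocytes. Dmrt1 binds DNA through a DM domain and keeps postnatal Sertoli cells from turning toward granulosa cells, and in the adult ovary Foxl2 and the estrogen receptors are known to hold Sox9 down.

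The sequences of 3 of the 9 probes, which read as protein-coding, are printed because the reading of each SoxE gene turns on them. The Sox9 probe lies in the stretch that encodes the HMG box, and it disagreed with both other Sox9 probes. The Sox8 probe starts in the end of the HMG box stretch of Sox8 and runs past it, and it rose in Ex3aERKO and Ex3abERKO. The Sox10 probe was well above background on no array. Sequences are as the array files give them, 5′ to 3′, in lower case throughout.
Sox9 A_51_P451606: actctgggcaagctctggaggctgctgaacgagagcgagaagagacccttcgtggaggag
Sox8 A_52_P269667: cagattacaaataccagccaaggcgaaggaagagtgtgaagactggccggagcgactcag
Sox10 A_52_P192625: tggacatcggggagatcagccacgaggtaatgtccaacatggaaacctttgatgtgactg
The Sox9 sequence is 60 bases long but spans 853 bases of the genome (mm7, the build of the array files), chr11:112892041-112892893, so that 793 bases inside that interval are absent from the probe and the probe crosses an intron. The other Sox9 probes lie downstream of it on the same strand, A_52_P577484 at chr11:112894739-112894798 and A_52_P214630 at chr11:112896540-112896599. Gaps of 1845 and 1741 bases separate the 3 probes. The 2 Sox8 probes lie on the minus strand, A_52_P269667 at chr17:23751840-23751899 and A_52_P269672 at chr17:23749058-23749117. Sox10 was read by A_51_P346704 at chr15:79238027-79238086 and A_52_P192625 at chr15:79239405-79239464, Dmrt1 by A_52_P436393 at chr19:25303450-25303509 and Fgf9 by A_51_P497152 at chr14:52977509-52977568. The longest run of bases that any of the 9 probes shared with a probe of another gene was between 13 and 15 bases. In the RefSeq gene table no other gene overlapped any of the 5.

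The RefSeq promoter table (GRCm38.p6) held 2 of the 5 genes, Sox8 and Fgf9, and not Sox9, Sox10 or Dmrt1. The Sox8 promoter is shown because Sox8 was the SoxE gene that rose in most comparisons. It covers the 250 bases before the start of the gene, chr17:25570687-25570936 on the minus strand, with capitals for the motif matches.
Sox8 promoter: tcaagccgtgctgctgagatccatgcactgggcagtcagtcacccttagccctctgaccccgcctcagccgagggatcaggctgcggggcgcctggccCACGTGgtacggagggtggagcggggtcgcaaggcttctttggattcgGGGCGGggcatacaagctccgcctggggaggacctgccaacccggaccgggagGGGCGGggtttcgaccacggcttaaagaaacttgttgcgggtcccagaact
The capitals mark 1 E-box (CACGTG) and 2 GC boxes (GGGCGG), searched on both strands. Over all 32851 promoters of that length, 6.0% held that E-box and 32.7% held a GC box. The estrogen receptor half-site AGGTCA, the SOX core ACAAT and the GATA core AGATAA had no match in this window, against 14.0%, 27.7% and 10.0% of all promoters with one. The Fgf9 window of the same length held 1 GATA core and none of the other 4 motifs. A match or its lack describes only these letters.

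The 75th percentile of processed signal ranged from 1211.4 to 1806.3, and between 80.4% and 87.6% of spots were well above background. That percentile differed by group, from 1211.4 to 1555.3 in Ex3abERKO and from 1307.0 to 1753.3 in control. On every Ex3aERKO and Ex3bERKO array it was 1620.8 or more. All levels are log2 of processed signal over the array's own 75th percentile, so a difference of 1 is 2-fold and levels of different probes are not comparable. Esr1, which encodes ERα, fell by 2.38 ± 0.37 in Ex3aERKO (limma adjusted p = 0.00183) and by 1.63 ± 0.37 in Ex3abERKO (adjusted p = 0.00664) against control. Esr2, which encodes ERβ, fell by 1.97 ± 0.51 in Ex3abERKO (adjusted p = 0.0134) and differed by 0.43 ± 0.51 in Ex3bERKO (adjusted p = 0.917). So Esr2 fell in 1 of the 2 groups labelled as lacking ERβ and was not called in the other. Which part of either gene was removed, and whether these probes lie in it, is not given in the sources used here, so a level that did not fall neither bears out nor contradicts a label. The group names below are those of the labels. The arrays lay on 4 slides, numbered in scan order. All 4 groups were present on slides 1 and 4, Ex3bERKO was missing from slide 2 and Ex3abERKO from slide 3. In whole ovary, more cells of a type and more RNA per cell cannot be told apart.

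Ex3abERKO ovaries gave more Sox9, Sox8, Dmrt1 and Fgf9 signal than control ovaries, with Sox9 higher on 2 of its 3 probes. 6 of the 8 tested probes were called higher in Ex3abERKO than in control and none lower, against 22.1% of all probes called, 9.6% higher and 12.5% lower. 1 of the 6 is the Dmrt1 probe, which passed the background filter through its Ex3abERKO arrays alone, so that its place among them was fixed by the filter, here and in the other counts with Ex3abERKO. Of the other 7 probes, 5 were called higher. The groups did not overlap on those 6 probes, against 10.4% of all probes with Ex3abERKO wholly above control. In Ex3aERKO, 2 of the 8 probes were called higher than control, both of Sox8, against 7.09% of all probes called and 3.45% called higher. In Ex3bERKO, limma called 0 of the 8 probes, with 3 at an unadjusted p under 0.05, while 1.09% of all probes were called and 0.373% called higher. Ex3abERKO was called higher than Ex3aERKO and than Ex3bERKO on 5 of the 8 probes each, those of Sox9 (2), Sox8 (2) and Dmrt1, or on 4 of the 7 other than Dmrt1. Over all probes, 7.34% were called against Ex3aERKO and 3.63% called higher, and against Ex3bERKO 16.1% were called and 7.13% called higher. The groups did not overlap on those 5 probes, where 6.67% and 7.89% of all probes had Ex3abERKO wholly higher. Between Ex3aERKO and Ex3bERKO limma called 0 of the 8, with 2 at an unadjusted p under 0.05 and 1.93% of all probes called. Those 2 groups did not overlap on 1 member probe, Sox9 A_51_P451606, lower in Ex3aERKO as were 4.84% of all probes. Comparisons with one group in common share its arrays and are not independent.

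**Figure D1:**
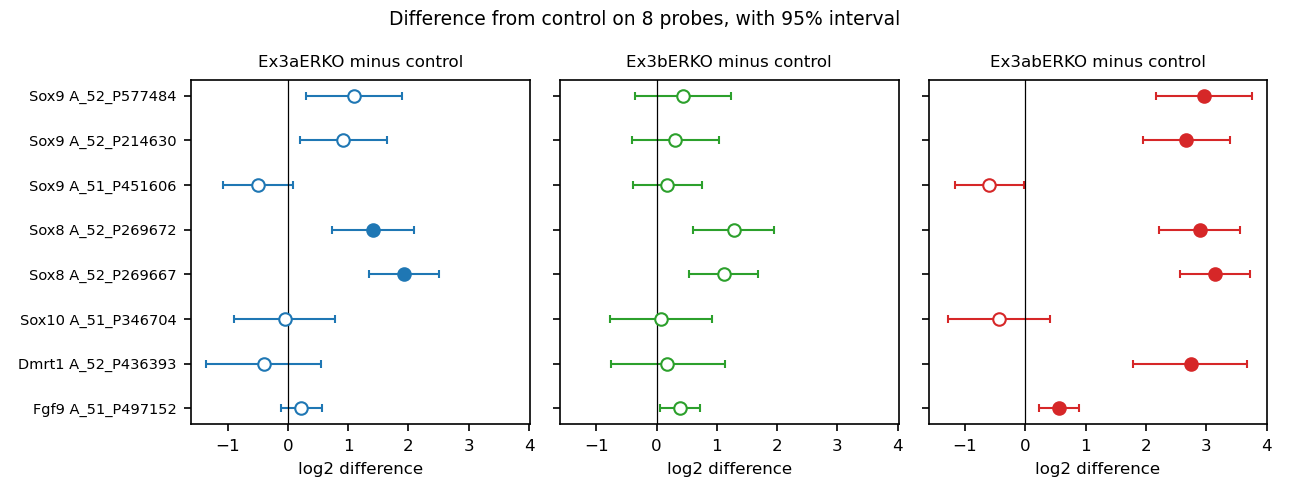
Difference from control on the log2 scale (x axis) for the 8 tested probes (y axis) in each knockout group, with n = 4 arrays a group. Points are limma estimates, bars are 95% intervals and filled points passed an adjusted p of 0.05; the Dmrt1 differences rest on values below background in control, Ex3aERKO and Ex3bERKO. In Ex3abERKO 6 of 8 points are filled, and both Sox8 points lie to the right of 0 in every group.

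Sox9, the factor that directs Sertoli cell fate, is represented by A_52_P577484, which was well above background on all 16 arrays. Control replicates 1 to 4 had levels of -2.84, -2.54, -2.26 and -2.12, and Ex3abERKO replicates had levels of 0.08, -0.05, 1.09 and 0.96. The levels were -1.27, -0.79, -0.92 and -2.37 in Ex3aERKO and -1.66, -1.70, -1.84 and -2.83 in Ex3bERKO. All 4 Ex3abERKO arrays lay above every other array, while Ex3aERKO 4 lay inside the control range and the other 3 Ex3aERKO arrays lay above it. Sox9 rose by 2.96 ± 0.37 in Ex3abERKO against control, 7.79-fold (limma adjusted p = 0.000156). Within slides 1, 2 and 4 this difference was 3.93, 2.14 and 3.22. Ex3abERKO exceeded Ex3aERKO by 1.86 ± 0.37 (adjusted p = 0.00938) and Ex3bERKO by 2.53 ± 0.37 (adjusted p = 0.000844). With only the groups compared in the fit, the difference from Ex3aERKO no longer passed on this probe (adjusted p = 0.0572) or on the second (0.0562).

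Against control, Sox9 differed by 1.10 ± 0.37 in Ex3aERKO (95% interval 0.30 to 1.90, adjusted p = 0.096) and by 0.43 ± 0.37 in Ex3bERKO (95% interval -0.36 to 1.23, adjusted p = 0.845). The Ex3aERKO difference passed only without Ex3aERKO 4 (1.45, adjusted p = 0.0179) among the 16 fits that each left out 1 array, and with array weights (1.30, adjusted p = 0.00606). Ranked by mean level, the order was Ex3abERKO, Ex3aERKO, Ex3bERKO and control, and the neighbours Ex3aERKO and Ex3bERKO (0.67 ± 0.37, adjusted p = 0.551) and Ex3bERKO and control did not pass. Ex3aERKO 4 and Ex3bERKO 4, each the lowest of its group in Sox9, were also the lowest of their groups in the summed signal of the 14 oviduct and rete genes. That sum was 27.5 in Ex3aERKO 4 and 68.3 to 98.6 in the other 3 Ex3aERKO arrays, and 15.8 in Ex3bERKO 4 against 29.9 to 60.8 in the other 3 (units of the array's 75th percentile). In Ex3abERKO the order was another one, since Ex3abERKO 2 had the highest sum (134) and the lowest Sox9 level (-0.05), and the sums of replicates 3 and 4, highest in Sox9, were 58.4 and 47.2. Ex3aERKO 4 was also the lowest of its group in the sums of the sex determination, other Dmrt, FGF pathway, cartilage, germ cell and erythroid lists. Both arrays were the highest of their groups in the granulosa cell sum. It was 357 in Ex3aERKO 4 against 171 to 270, and 199 in Ex3bERKO 4 against 139 to 191. In Ex3abERKO that sum was 94.1 in replicate 2, lowest in Sox9, and from 76.6 to 123 on the other arrays. The part of those cells in the Sox9 result was not tested.

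The second Sox9 probe, A_52_P214630, was printed in 10 spots and followed the first at a Pearson r of 0.996 over the 16 arrays. It read -2.75, -2.90, -2.45 and -2.45 in control, and -0.42, -0.40, 0.60 and 0.35 in Ex3abERKO. It read -1.66, -1.24, -1.26 and -2.69 in Ex3aERKO, and -2.08, -1.97, -2.25 and -3.02 in Ex3bERKO. The probe therefore repeated the separation of Ex3abERKO from the other groups, with a rise of 2.67 ± 0.34 over control, 6.38-fold (adjusted p = 0.000156). It also repeated the calls over Ex3aERKO (1.75 ± 0.34, adjusted p = 0.0075) and Ex3bERKO (2.36 ± 0.34, adjusted p = 0.000693).

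The third Sox9 probe, A_51_P451606, whose HMG box sequence is printed above, did not follow them. It was well above background on all 16 arrays and correlated with the other probes at r of -0.572 and -0.562 over the 16 arrays. Its level was -3.51, -3.82, -4.30 and -4.76 in control and -4.37, -4.64, -4.90 and -4.88 in Ex3abERKO. It was -4.06, -4.35, -5.03 and -4.93 in Ex3aERKO and -4.01, -3.93, -3.67 and -4.05 in Ex3bERKO. Control and Ex3abERKO overlapped on this probe, and Ex3abERKO lay wholly below Ex3bERKO, as 11% of all probes did. Against control the Ex3abERKO difference was -0.60 ± 0.27 (adjusted p = 0.129), where the other 2 probes read rises of 2.96 and 2.67, and without control 4 it was called lower (-0.82, adjusted p = 0.0394). Against Ex3bERKO it was -0.78 ± 0.27 (adjusted p = 0.0614), and this passed with only those groups in the fit (adjusted p = 0.04), and without control 1 (0.0483) or control 4 (0.0412). The rise of Sox9 thus holds for the 2 downstream probes and not for the coding probe.

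**Figure D2:**
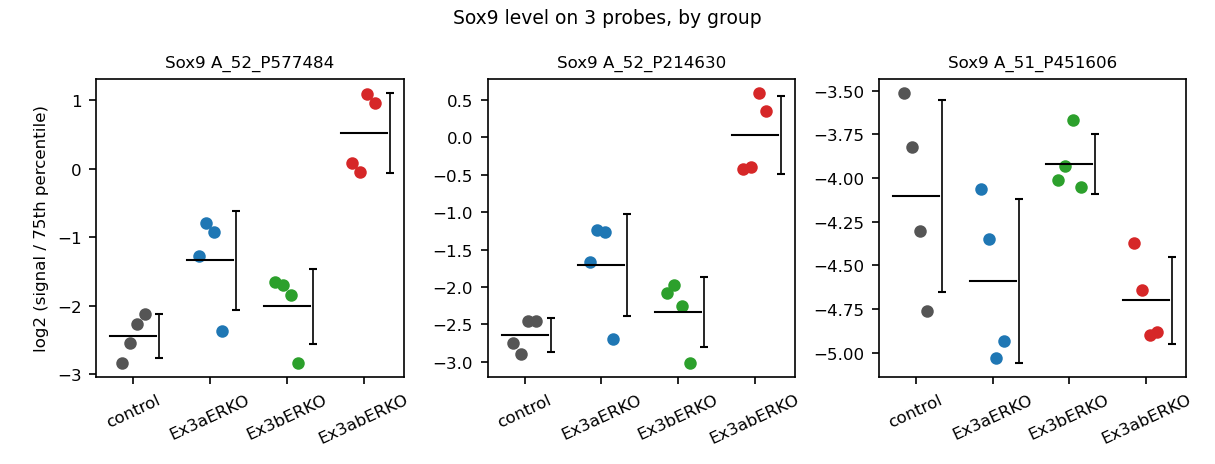
Sox9 level, log2 of signal over the array's 75th percentile (y axis), on 3 probes in the 4 groups (x axis), n = 4 arrays a group. Each point is 1 array, in replicate order from left to right, lines are group means and bars are 1 SD; the y axes differ. Ex3abERKO stands above every other array on the first 2 probes, from -0.05 to 1.09 on A_52_P577484, and lies between -4.90 and -4.37 on A_51_P451606, inside the range of the other groups.

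Sox8, the SoxE factor that acts beside Sox9 in Sertoli cells, was the only one of the 5 genes called in Ex3aERKO. Its representative probe, A_52_P269672, read -6.61, -5.52, -5.80 and -6.38 in control, where replicates 1 and 4 were not well above background. It read -4.20, -4.60, -4.22 and -5.63 in Ex3aERKO, and -4.59, -4.66, -4.83 and -5.13 in Ex3bERKO. It read -3.25, -3.63, -2.97 and -2.92 in Ex3abERKO. Ex3abERKO was highest on every array, Ex3bERKO lay wholly above control, and Ex3aERKO 4 overlapped the control range. Sox8 rose by 2.89 ± 0.31 in Ex3abERKO, 7.40-fold (adjusted p = 6.18e-05), and by 1.41 ± 0.31 in Ex3aERKO, 2.66-fold (adjusted p = 0.0137). The Ex3bERKO difference was 1.28 ± 0.31 (95% interval 0.60 to 1.95) and did not pass (adjusted p = 0.0727). Within slides the Ex3abERKO difference was 2.88 to 3.65 and the Ex3aERKO difference 0.16 to 2.16. With normexp background correction, which adds an offset to every spot, the Ex3abERKO difference was 0.64 (adjusted p = 0.401) and the Ex3aERKO difference -0.33, and no comparison of either Sox8 probe passed.

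The coding probe of Sox8, A_52_P269667, followed the first at an r of 0.946. It read -6.59, -6.04, -6.66 and -6.83 in control, where replicate 4 was not well above background, and -3.72, -3.82, -2.96 and -3.06 in Ex3abERKO. It read -4.34, -4.58, -4.34 and -5.17 in Ex3aERKO, and -5.87, -5.02, -5.14 and -5.65 in Ex3bERKO. On this probe all 3 knockout groups lay wholly above control. That held for 7.28%, 3.49% and 10.4% of all probes in Ex3aERKO, Ex3bERKO and Ex3abERKO. The rise was 3.14 ± 0.27 in Ex3abERKO, 8.83-fold (adjusted p = 1.23e-05), and 1.93 ± 0.27 in Ex3aERKO, 3.80-fold (adjusted p = 0.000905). In Ex3bERKO the difference was 1.11 ± 0.27 (adjusted p = 0.0715). Ex3abERKO exceeded Ex3aERKO by 1.47 ± 0.31 and 1.22 ± 0.27 on the 2 probes (adjusted p = 0.0127 and 0.0161), and with only those groups in the fit neither passed (0.0645 and 0.0666). On A_52_P269667 that call was also lost without Ex3aERKO 4 (0.0523). It exceeded Ex3bERKO by 1.61 ± 0.31 and 2.03 ± 0.27 (adjusted p = 0.00401 and 0.000506).

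The Ex3aERKO call of A_52_P269672 was lost without Ex3aERKO 3 (adjusted p = 0.0503), with only the groups compared (0.0637) and without Ex3aERKO 2, Ex3abERKO 2 and control 4 together (0.123), the arrays highest in liver, oviduct and erythroid genes. On A_52_P269667 the Ex3aERKO difference was 1.83 to 2.11 whichever array was left out and stayed called. In Ex3bERKO, A_52_P269672 passed without control 2 (adjusted p = 0.0409), without Ex3aERKO 4 (0.0239) and with array weights (0.0197), and A_52_P269667 passed without control 2 (1.27, adjusted p = 0.0396) and with array weights (1.17, 0.0109). Between Ex3aERKO and Ex3bERKO the 2 probes differed by 0.14 ± 0.31 (adjusted p = 0.941) and 0.81 ± 0.27 (adjusted p = 0.183). The interaction, the difference of Ex3abERKO from Ex3aERKO minus that of Ex3bERKO from control, did not pass and was 0.20 ± 0.45 (95% interval -0.76 to 1.15) and 0.10 ± 0.39 (95% interval -0.72 to 0.93).

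Dmrt1, which maintains Sertoli cell identity after birth, was detected in Ex3abERKO only. Its probe read -5.43, -6.28, -5.25 and -4.93 in Ex3abERKO, well above background on all 4 arrays. It read -7.57, -8.77, -7.70 and -8.79 in control, -8.05, -9.09, -9.30 and -8.00 in Ex3aERKO, and -8.13, -9.05, -7.29 and -7.63 in Ex3bERKO, and was not well above background on any of those 12 arrays. Ex3abERKO did not overlap any other group. For a group not well above background a fold is given as an approximate bound. On each array of that group the probe took the higher of its own signal and the array's lowest signal well above background, before averaging. That lowest signal is not a strict limit. Sox8 A_52_P269672 lay above it without being well above background in control 1 (-6.61 against -6.736) and control 4 (-6.38 against -6.57). By this rule Dmrt1 was at least 2.51-fold higher in Ex3abERKO than in control, at least 3.05-fold higher than in Ex3aERKO and at least 3.07-fold higher than in Ex3bERKO. The limma adjusted p of these comparisons (0.000746, 0.00128 and 0.00208) came from signal below background in the dimmer group. Those values do not test the bounds, and nothing is drawn from them. The fit also gave Dmrt1 an interaction of 2.95 ± 0.63, the 1 interaction called among the 8 probes (3.18% of all probes, 1.5% higher), but 3 of its 4 groups were not measured above background and nothing is read from it. Because the probe was kept only through Ex3abERKO, it could enter the test only by being higher there. With normexp background correction the difference from control was -0.23 (adjusted p = 0.769), and no comparison of Dmrt1 passed.

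Fgf9, the secreted ligand of the loop with Sox9, had the smallest difference of the 4 genes called. Its probe was well above background on all 16 arrays and read -3.37, -3.06, -3.19 and -3.41 in control and -2.89, -2.43, -2.77 and -2.71 in Ex3abERKO. It read -2.87, -2.91, -3.17 and -3.19 in Ex3aERKO and -2.60, -3.17, -2.87 and -2.86 in Ex3bERKO. Ex3abERKO lay wholly above control, and each single knockout overlapped both. Fgf9 rose by 0.56 ± 0.16 in Ex3abERKO, 1.47-fold (adjusted p = 0.0209), with 0.60, 0.75 and 0.48 within slides 1, 2 and 4. The differences in Ex3aERKO (0.22 ± 0.16, adjusted p = 0.513) and Ex3bERKO (0.39 ± 0.16, adjusted p = 0.409) did not pass, nor did Ex3abERKO against Ex3aERKO (0.33 ± 0.16, adjusted p = 0.231) or Ex3bERKO (0.17 ± 0.16, adjusted p = 0.512). The Ex3abERKO call was lost without control 1 (0.52, adjusted p = 0.0594), control 4 (0.51, 0.0575) or Ex3abERKO 2 (0.47, 0.0687). It was also lost with only the groups compared (adjusted p = 0.0633) and without the 3 arrays highest in liver, oviduct and erythroid genes (0.42, adjusted p = 0.171), and normexp background correction gave -0.06 (adjusted p = 0.904).

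**Figure D3:**
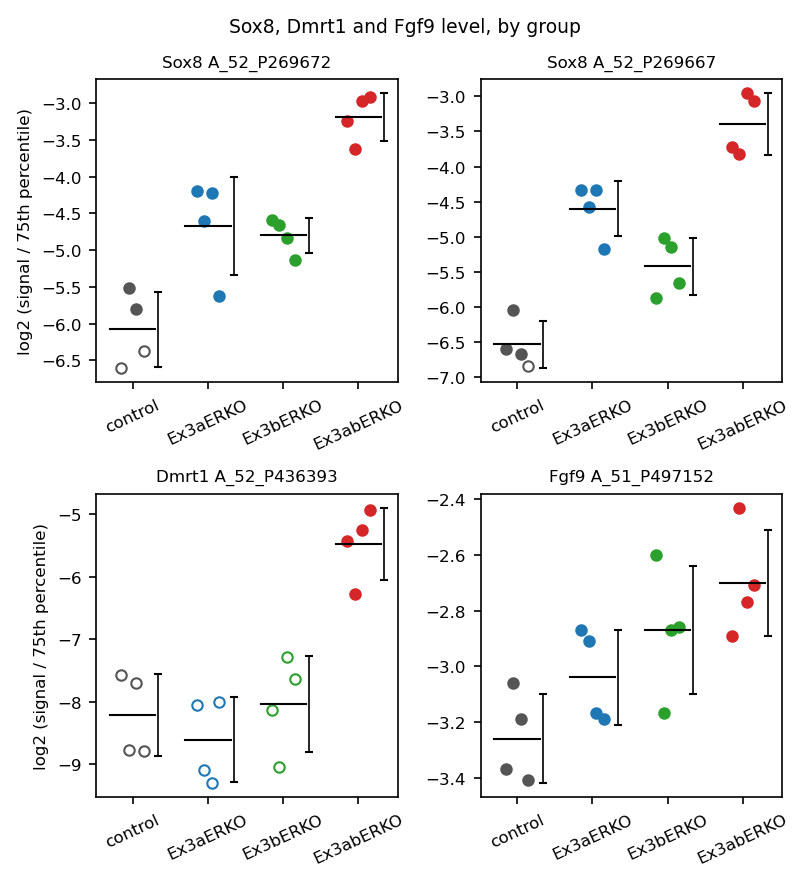
Level of Sox8 (2 probes), Dmrt1 and Fgf9, log2 of signal over the array's 75th percentile (y axis), in the 4 groups (x axis), n = 4 arrays a group. Each point is 1 array in replicate order, open points were not well above background, lines are group means and bars are 1 SD; the y axes differ. Control is lowest and Ex3abERKO highest in mean level on both Sox8 probes, Dmrt1 has filled points in Ex3abERKO only, and Fgf9 spans from -3.41 to -2.43.

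Sox10, the SoxE factor of neural crest and glia, was called in none of the comparisons. Its bright probe, A_51_P346704, was well above background on all 16 arrays and read -1.80, -2.07, -3.11 and -2.99 in control and -3.05, -2.98, -2.25 and -3.44 in Ex3abERKO. It read -1.96, -2.23, -3.07 and -2.93 in Ex3aERKO and -2.06, -2.16, -3.44 and -2.03 in Ex3bERKO. All groups overlapped, and the levels separated by slide instead. They lay between -2.25 and -1.80 on slide 1 and between -2.07 and -1.96 on slide 3, but between -3.07 and -2.98 on slide 2 and between -3.44 and -2.93 on slide 4. The F test of slide, given group, was 32.8 for this probe (limma adjusted p = 0.00048), and 11.1% of all probes passed that test. No other member probe did, with adjusted p from 0.193 to 0.881. Against control, the Sox10 difference was -0.05 ± 0.40 in Ex3aERKO (95% interval -0.90 to 0.79, adjusted p = 0.971). It was 0.07 ± 0.40 in Ex3bERKO (-0.77 to 0.92, adjusted p = 0.994) and -0.44 ± 0.40 in Ex3abERKO (-1.28 to 0.41, adjusted p = 0.488). With slide as a block the Ex3bERKO difference turned to -0.18 (adjusted p = 0.782). The coding probe printed above, A_52_P192625, read from -9.42 to -7.69 and was well above background on 0 of 16 arrays, and it correlated with the bright probe at r = -0.321.

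**Figure D4:**
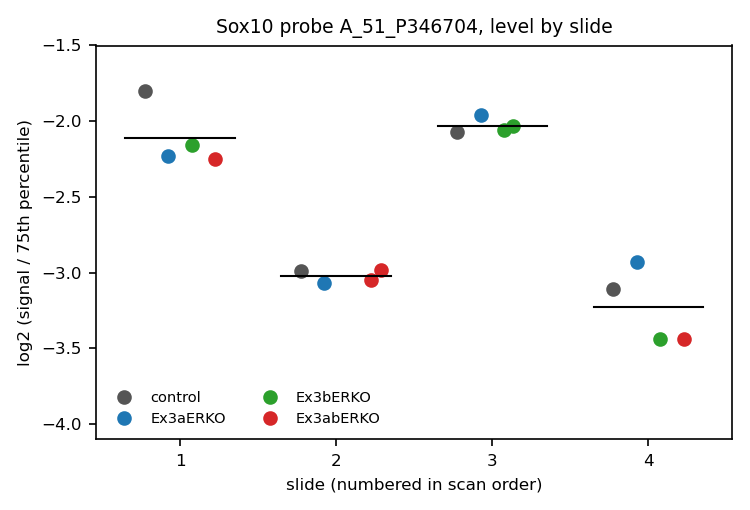
Level of the Sox10 probe A_51_P346704, log2 of signal over the array's 75th percentile (y axis), on the 4 slides (x axis). Each point is 1 array, coloured by group, and lines are slide means. Slides 1 and 3 have means of -2.11 and -2.03 and slides 2 and 4 of -3.02 and -3.23, with every group present at both levels.

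Across the 16 arrays Sox9 and Sox8 varied together, at a Pearson r of 0.92 between representative probes. Once group means were removed the r was 0.72, the highest within-group value among the 6 pairs of Sox9, Sox8, Sox10 and Fgf9. Sox9 with Fgf9 gave 0.59 over all arrays and 0.04 within groups. Sox8 with Fgf9 gave 0.74 and 0.28. These values describe 16 arrays that share slides and groups. Among 18230 other named genes, those most like Sox9 over the 16 arrays were Nhsl1 (r = 0.978), Gpr65 (0.968), Il4 (0.968), Hcst (0.966) and Skap2 (0.963), and 252 genes exceeded 0.9. For Sox8 they were Clec3b (0.949), Bbs9 (0.946), Il4 (0.939), Zpbp (0.937) and Abcc1 (0.936), with 46 genes over 0.9. For Sox10 they were Olfr382 (0.98), Olfr1356 (0.978), Gast (0.976), Rtp3 (0.969) and Slc22a6 (0.968). The Sox10 probe used here is the one whose levels separated by slide, so this likeness may follow slide, which was not tested. For Fgf9 the highest was Nfkbia at 0.824, and 0 genes exceeded 0.9. Dmrt1 was left out here, since its probe was well above background on 4 arrays.

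Other genes around Sox9 in sex determination moved both ways in Ex3abERKO. Of 23 tested, 5 rose, 5 fell and 13 did not pass, with a median difference of 0.07 against -0.13 over all probes. Over all probes 9.6% were called higher and 12.5% lower in Ex3abERKO against control, the shares to set beside each list count in Ex3abERKO. Ptgds, which makes the prostaglandin D2 that acts on Sox9 in the fetal testis, rose by 3.18 ± 0.98 (adjusted p = 0.0315). Nr5a1, a regulator of the Sox9 gene, fell by 2.23 ± 0.25 (adjusted p = 7.47e-05). Amh, a target of Sox9 in fetal Sertoli cells, fell by 1.90 ± 0.45 (adjusted p = 0.00755) and Cbx2, a Polycomb protein, by 1.60 ± 0.33 (adjusted p = 0.00387). Sry was on the array, and none of its probes was well above background on 4 arrays. Foxl2 differed by -0.22 ± 0.15 (adjusted p = 0.341). In Ex3aERKO 1 of the 23 rose, Ptgds by 6.25 ± 0.98 (adjusted p = 0.00182), and 1 fell, Amh by 1.71 ± 0.45 (adjusted p = 0.0312). For list counts in Ex3aERKO the share of all probes called was 7.09%, with 3.45% higher. For those in Ex3bERKO it was 1.09%, with 0.373% higher.

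Among other genes of Sertoli cells, 12 of 24 tested rose and 3 fell in Ex3abERKO, with a median of 1.11 against -0.13 over all probes. Etd rose by 6.01 ± 0.51, the tight junction gene Cldn11 by 4.66 ± 0.46 and the defensin Defb36 by 4.64 ± 0.43, while the cystatin Cst8 fell by 4.81 ± 0.60. In Ex3aERKO 7 of the 24 rose and 1 fell, and in Ex3bERKO 2 rose, Aard by 2.37 ± 0.46 (adjusted p = 0.0213) and Cldn11 by 2.07 ± 0.46 (adjusted p = 0.0437). Control arrays had a summed signal of 275 to 364. The sums were 347 to 484 for Ex3aERKO, 310 to 367 for Ex3bERKO and 308 to 557 for Ex3abERKO. Those sums overlap between control and every other group, but a sum is carried by its brightest genes. Ctsl, Clu and Inha had mean control levels of 6.78, 5.86 and 5.73, and Etd, Cldn11 and Defb36 of -4.18, -1.99 and -3.11. The overlap therefore hardly weighs the genes that rose most.

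In the Dmrt family, 4 of the 8 other genes tested rose in Ex3abERKO and none fell, with a median of 0.96. Dmrtc1a rose by 4.11 ± 0.45 (adjusted p = 5.99e-05), and by 2.56 ± 0.45 in Ex3aERKO (adjusted p = 0.00336). Dmrtc1b, a paralogue of Dmrtc1a whose signal may not be separable from it, rose by 2.28 ± 0.63 (adjusted p = 0.019), with 2 of 4 control arrays well above background. Dmrt2 rose by 1.92 ± 0.46 (adjusted p = 0.00892) and Dmrta1 by 1.54 ± 0.37 (adjusted p = 0.00939). Of 14 Sox genes outside the SoxE group, 1 rose and 5 fell, with a median of -0.51. Those that fell included Sox4 (-1.79 ± 0.55), Sox11 (-1.66 ± 0.45), Sox21 (-1.37 ± 0.20) and the endothelial factor Sox18 (-1.24 ± 0.19), and Sox6 rose by 1.17 ± 0.33. In Ex3aERKO 3 of the 14 fell, Sox18 (-1.38 ± 0.19), Sox7 (-1.27 ± 0.31) and Sox21 (-0.87 ± 0.20), and 1 rose, Sox5 (0.89 ± 0.21). In Ex3bERKO 1 fell, Sox21 (-0.91 ± 0.20), and 0 rose.

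Around Fgf9, 24 receptors, relatives and feedback genes were tested, of which 5 rose and 1 fell in Ex3abERKO, with a median of 0.25. Spry3, a feedback inhibitor, rose by 1.83 ± 0.23 with 3 of 4 control arrays well above background, the adaptor Grb2 by 0.96 ± 0.18 and the phosphatase Dusp4 by 0.95 ± 0.26, while the decoy receptor Fgfrl1 fell by 0.88 ± 0.28. Dusp6, a feedback target of FGF signalling, rose by 0.68 ± 0.20 (adjusted p = 0.0262). Fgfr2, the receptor through which Fgf9 acts in the fetal testis, differed by 0.05 ± 0.17 (adjusted p = 0.891), and Fgf20, a relative of Fgf9, by -0.65 ± 0.55 (adjusted p = 0.455). In Ex3aERKO 2 rose, Fgfr4 by 1.13 ± 0.20 (adjusted p = 0.00365) and Etv1 by 1.17 ± 0.29 (adjusted p = 0.0236).

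SoxE factors are also made in cartilage, glia, melanocytes and several epithelia, so markers of these and other tissues were read on the same arrays. Of 17 glia and melanocyte genes, 6 rose and none fell in Ex3abERKO, with S100b up by 2.79 ± 0.63 and Mitf by 1.91 ± 0.42. Their summed signal was 33.2 to 48.9 in Ex3abERKO and 15.5 to 22.1 in control, without overlap. Pmp22 was the brightest gene of that sum, at mean levels of 3.21 in control and 4.44 in Ex3abERKO. The melanocyte enzyme Dct differed by 2.53 ± 1.00 (adjusted p = 0.0849), and Foxd3, also a marker of this list, did not pass either (0.08 ± 0.24, adjusted p = 0.865). Of 14 oviduct and rete genes, 6 rose and none fell, with Wfdc2 up by 5.05 ± 0.51, and the summed signal was 34.2 to 134 in Ex3abERKO and 12.4 to 18.0 in control. Among 15 genes of a cartilage list, not all of them driven by Sox9, 1 rose and 2 fell, near the 9.6% and 12.5% of all probes. The 1 that rose was Col9a3, by 0.95 ± 0.30 (adjusted p = 0.0322). Those that fell were Runx2, by 2.16 ± 0.48 (by 3.48 ± 0.48 in Ex3aERKO and 4.05 ± 0.48 in Ex3bERKO), and Col9a2, by 1.11 ± 0.31. Col2a1, a known target of Sox9 in cartilage, differed by 0.42 ± 0.43 (adjusted p = 0.54). Of 19 granulosa cell genes 2 rose and 9 fell, and of 14 germ cell genes 1 rose and 7 fell, with Zp3 of the oocyte coat down by 2.52 ± 0.46. The germ cell sum was 16.7 to 33.8 in control and 5.07 to 8.82 in Ex3abERKO. Ex3aERKO shared the germ cell and oviduct differences. Its germ cell sum was 1.79 to 8.27, with 9 genes lower and none higher. Its oviduct sum was 27.5 to 98.6, with 3 genes higher, none lower and Wfdc2 up by 5.03 ± 0.51. Of the granulosa cell genes 3 rose and none fell there. In Ex3bERKO 0 genes of these 3 lists were called. Of 8 liver genes 1 rose in Ex3abERKO, Ahsg by 3.86 ± 0.83. It was also the 1 liver gene called in Ex3aERKO, higher by 3.13 ± 0.83 (adjusted p = 0.0343). In Ex3abERKO limma called 0 of 6 erythroid genes, with 1 at an unadjusted p under 0.05. The liver sum was 152 in Ex3aERKO 2 and 0.804 to 12.3 on the other arrays, the oviduct sum was highest in Ex3abERKO 2 and the erythroid sum was highest in control 4, at 371. The part of these cell types in the results for Sox9, Sox8, Dmrt1 and Fgf9 was not tested.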

How the data were processed

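Spot intensity on 16 single-colour arrays had been extracted with Agilent Feature Extraction 9.5, per the submitters' processing notes. The deposited processed signal intensity is background-subtracted, per the file headers, with no scaling between arrays. The values of the authors' series table equalled this intensity at 41174 probes (relative tolerance 0.0001), hence linear and uncentred. Its column medians were 149.5 to 252.7. Each array was scaled to its 75th percentile over 43379 non-control spots and put on the log2 scale. Outlier spots (54 to 106 an array) were dropped, and repeat spots of a probe averaged. A probe was kept if well above background on at least 4 of 16 arrays (36224 probes). The number of arrays limits the precision. Probes were named by accession in a RefSeq table (22951), by current symbol (6659), by older symbol (3109) or not at all (8455).

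limma 3.58.1 (R 4.3.3) was fitted over all 16 arrays with 4 group means and 12 residual degrees of freedom. Two-sided p-values had Benjamini-Hochberg adjustment over the 36224 probes of a comparison. A call needed an adjusted p below 0.05. The ± sign gives a standard error and n is 4 in every group. The probe with the highest mean represents a gene. Arrays were grouped by title. Replicate numbers did not pair samples: deviations from group means of same-numbered arrays correlated at -0.30 to 0.44 (median -0.08). Those of arrays on the same slide correlated at -0.03 to 0.44 (median 0.28), and on different slides at -0.30 to 0.17 (median -0.08). The main fit had no slide term, and slide was entered as a block among the alternatives. The 5 genes and 12 marker lists were chosen with earlier results of these data known. All 5 genes are named, from each list up to 4 genes with the largest called difference in Ex3abERKO plus those a result turns on, and the 5 most alike genes for each member detected on at least 8 arrays. Some of the further list genes were picked after their values were seen. Alternatives covered scaling, background correction, filters, slide, array weights, variance model, samples and replicates. The fitting was tested on simulated data. Some results are not reported here.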

Additional observations from a re-analysis of the deposited data

Results flagged for a closer look

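Within Ex3bERKO, replicate 4 read -2.83 on the Sox9 probe A_52_P577484, apart from the other 3 arrays of the group, at -1.84 to -1.66, by Dixon's test at 95%. Within the same group, replicate 3 read -3.44 on the Sox10 probe A_51_P346704, while the other 3 read -2.16 to -2.03, and it is the group's only array on slide 4. Chance gives about 1 such array in 20 groups, and 32 combinations of probe and group were examined.

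For Dmrt1 the fitted difference of Ex3abERKO from Ex3aERKO minus that of Ex3bERKO from control was 2.95 on the log2 scale. In 3 of the 4 groups no array measured the probe well above background, and it was kept only through Ex3abERKO, so this value has no measured size and does not show that the effects differ.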

How the results depend on the processing

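Scaling each array to its median, quantile normalization, the authors' series table, no filter, a trended and robust variance and 1 probe per gene each kept the direction and the call of all 35 comparisons of the 5 representative probes. Under 1 probe per gene, 1 member was called in Ex3aERKO against control and 3 in each of Ex3abERKO against Ex3aERKO and against Ex3bERKO, since only 5 probes could be counted. Well-above-background signal on all 16 arrays kept 5 member probes, and then 0 were called in Ex3aERKO against control, 3 in Ex3abERKO against control, 2 against Ex3aERKO, 2 against Ex3bERKO and 0 for the interaction. The Sox8 and Dmrt1 probes could not be fitted there. The median of all probes in Ex3abERKO against control was -0.13, and -0.09 with median scaling, where no median of a list changed its sign.

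Normexp background correction changed most. It adds an offset of 50 before scaling. Member probes called were 0 in Ex3aERKO against control, 2 in Ex3abERKO against each of the other groups and 0 for the interaction. On the Sox8 probe A_52_P269672, Ex3aERKO turned to -0.33 and Ex3bERKO to -0.41 against control, and Ex3abERKO stood 0.64, 0.96 and 1.05 above control, Ex3aERKO and Ex3bERKO without passing. On A_52_P269667, Ex3aERKO and Ex3bERKO turned to -0.15 and -0.54. Dmrt1 turned to -0.97 in Ex3bERKO and -0.23 in Ex3abERKO against control and 0.04 between the single knockouts, and 0.70, 0.73 and an interaction of 1.66 no longer passed. Fgf9 turned to -0.35 in Ex3aERKO, -0.20 in Ex3bERKO and -0.06 in Ex3abERKO against control, with an interaction of 0.49. Sox10 turned to -0.15 in Ex3bERKO. The Sox9 probe A_52_P214630 turned to -0.12 in Ex3bERKO, and A_51_P451606 to -0.44 in Ex3bERKO, 0.06 in Ex3abERKO against Ex3aERKO and 0.50 for the interaction. Normexp with quantile normalization, chosen after seeing the data, kept 33 of the 35 and turned Dmrt1 to -0.03 in Ex3bERKO against control and 0.02 between the single knockouts, all below background.

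Array weights gave 4 member probes called in Ex3aERKO, 2 in Ex3bERKO and 1 between them, with Sox9 at 1.30 in Ex3aERKO and Sox8 at 1.24 in Ex3bERKO now passing. They turned Sox10 to 0.06 in Ex3aERKO and the interactions of Sox8 to -0.15 and -0.27 and of Fgf9 to 0.03. With only the groups compared, 1 member probe was called in Ex3aERKO against control and 1 in Ex3abERKO against Ex3aERKO. Sox8 in Ex3aERKO (1.41), Fgf9 in Ex3abERKO (0.56), and Sox9 (1.86) and Sox8 (1.47) between Ex3abERKO and Ex3aERKO no longer passed on fewer arrays. This fit cannot give the interaction. Without Ex3aERKO 2, Ex3abERKO 2 and control 4, 1 member probe was called in Ex3aERKO, Sox8 there (1.29) and Fgf9 in Ex3abERKO (0.42) no longer passed, and in Ex3bERKO Sox10 turned to -0.09, Dmrt1 to -0.01 and Sox9 A_51_P451606 to -0.04. Slide as a fixed block turned Sox10 to -0.18 in Ex3bERKO, 0.12 between the single knockouts and 0.04 for the interaction, Dmrt1 to -0.01 in Ex3bERKO, the Fgf9 interaction to 0.09 and Sox9 A_51_P451606 to 0.00 between Ex3abERKO and Ex3aERKO. As a random block slide turned Sox10 to -0.01 in Ex3bERKO. Apart from the fewer probes or arrays named, the cause was not tested.

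Replicate numbers did not pair the samples. With the replicate block, all 35 calls of the representative probes kept their side, 6 member probes were called in Ex3abERKO against control, and on the Sox9 probe A_51_P451606 the Ex3abERKO difference from Ex3bERKO (-0.78) passed with an adjusted p of 0.0315.

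Leaving out each array in turn gave 1 to 4 member probes called in Ex3aERKO against control, 0 to 2 in Ex3bERKO, 5 to 6 in Ex3abERKO, 4 to 5 against Ex3aERKO and 5 to 6 against Ex3bERKO. Sox9 in Ex3aERKO ranged from 0.92 to 1.45. Sox8 A_52_P269672 ranged from 1.24 to 1.74 (Ex3aERKO) and 1.10 to 1.46 (Ex3bERKO) against control, -0.02 to 0.46 between them and -0.13 to 0.37 for the interaction. The interaction of A_52_P269667 ranged from -0.08 to 0.25. Fgf9 in Ex3abERKO ranged from 0.47 to 0.62 and its interaction from -0.15 to 0.04. Sox10 ranged from -0.26 to 0.18 (Ex3aERKO) and -0.13 to 0.41 (Ex3bERKO) against control, and -0.47 to 0.05 between them. Dmrt1 in Ex3bERKO ranged from -0.06 to 0.52. Sox9 A_51_P451606 ranged from -0.82 to -0.40 in Ex3abERKO against control, -0.04 to 0.38 in Ex3bERKO and -0.25 to 0.07 between Ex3abERKO and Ex3aERKO. Signal limits Dmrt1 to bounds, and for Sox8 A_52_P269672 only 2 of 4 control arrays were well above background.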
